A study of Homo sapiens with 4 samples.

Results

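PRR11, the gene silenced in this experiment, was followed together with SKA1, SKA2 and SKA3, which encode the subunits of the SKA complex. The 4 genes were picked by name from the 36359 rows of the deposited gene table, as the siRNA target, the gene that starts beside it on the opposite strand, and the other SKA subunits. All 4 had a row and enough counts to be tested. The RNA came from ACHN, a renal cell carcinoma line of human origin. A lipid reagent carried either a control siRNA (siNC) or an siRNA against PRR11 (siPRR11) into the cells, and 2 libraries of each group were sequenced. The groups differed, as far as the labels state, in the siRNA alone, and neither a time after transfection nor a separate culture for each library is given there. P-values therefore measure the spread between these libraries, which may be technical. A pair of siPRR11 duplexes is listed in the methods of the study, and which of them each library received was not stated in the sources used here. Each library averages over many cells, so more cells in a cell cycle phase and more RNA per cell cannot be told apart.

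The SKA complex sits at the outer kinetochore, the protein assembly that joins a chromosome to the spindle, and helps to keep it attached while microtubule ends grow and shrink. It is recruited in mitosis through the Ndc80 complex, CDK1 phosphorylation of SKA3 favors this step, Aurora B opposes it, and the SKA1 tail brings protein phosphatase 1 to the site. PRR11 encodes a proline-rich protein linked to cell cycle progression and to the actin-nucleating Arp2/3 complex, and it is raised in several tumor types. PRR11 and SKA2 are transcribed away from each other from a shared promoter region that is known for binding the CCAAT factor NF-Y.

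This shared region is shown first because it places the silenced gene next to an SKA gene. In the deposited table (GRCh38), SKA2 covers chromosome 17 from 59109951 to 59155269 on the minus strand and PRR11 covers 59155499 to 59204705 on the plus strand, which leaves 229 bases that hold no exon of either gene. They lie at chr17:59155270-59155498 and are printed on the plus strand, with CCAAT and its reverse complement ATTGG in capitals.
Between SKA2 and PRR11: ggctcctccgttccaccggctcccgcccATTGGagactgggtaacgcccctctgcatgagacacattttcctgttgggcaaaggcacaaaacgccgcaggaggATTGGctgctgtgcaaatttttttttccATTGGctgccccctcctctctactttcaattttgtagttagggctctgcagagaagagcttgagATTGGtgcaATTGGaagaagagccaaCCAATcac
These 229 bases hold 6 CCAAT letters in all, 1 on the plus strand and 5 on the minus strand, and 52% of them are G or C.

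RefSeq places the start of SKA2 560 bases from that of PRR11 (GRCh38.p14), and the 559 bases between these starts hold 11 CCAAT on either strand. Both RefSeq starts, 59155186 for SKA2 and 59155746 for PRR11, lie inside the gene spans of the deposited table. Bases called upstream below can therefore lie within a gene as counted there. In the 250 bases before its start, SKA2 has 5 CCAAT, all on its own strand, and PRR11 has 3. At least as many were found in 0.319% and 2.93%, respectively, of 35116 RefSeq windows of this length, belonging to 27305 genes, while 32% held any CCAAT. The windows of SKA1 and SKA3 had none. The 5 of these 8 motifs that are not wholly within the stretch above are shown with 10 bases on each side, read on the strand where the letters spell CCAAT, with the motif in capitals and its distance to the RefSeq start in bases. In the order printed they lie at chr17:59155257-59155281, chr17:59155225-59155249, chr17:59155603-59155627, chr17:59155630-59155654 and chr17:59155697-59155721.
SKA2, 85 to 81 upstream: aacggaggagCCAATgagtgcgaga
SKA2, 53 to 49 upstream: tgacagctgtCCAATggaggccctc
PRR11, 133 to 129 upstream: agagctccagCCAATcagagctgag
PRR11, 106 to 102 upstream: gctatctcagCCAATcacaagccgg
PRR11, 39 to 35 upstream: cagggagaggCCAATcgtagacacg
The letters TTTGAA, known as the CHR element of cell cycle promoters, were searched on both strands as well. They were found once among the 4 genes, 11 to 6 bases before the PRR11 start, without touching a CCAAT, and 13.3% of all windows held them. These matches describe letters and do not show a bound site.

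PRR11 was lower in both siPRR11 libraries. Its level in RPKM, the deposited unit that divides counts by exonic length and library total, was 9.95 and 9.72 in the siNC libraries and 3.82 and 3.49 in the siPRR11 libraries, from 3372, 2340, 1443 and 1199 counted reads. The groups lay far apart beside a spread of 9.83 ± 0.162 (SD, n = 2) in siNC and 3.65 ± 0.235 (SD, n = 2) in siPRR11. On the TMM-normalized counts, 35.9% of the control level was left, with a 95% interval of the fold from 0.313 to 0.412. The log2 fold change was -1.48 (SE 0.0909, adjusted p = 3.35e-06, edgeR quasi-likelihood F test). For comparison, 9.14% of the 21630 genes tested across the table were called lower at an adjusted p under 0.05, and 107 of them had a log2 fold change below that of PRR11. Exons of a gene on the same strand cover 3.31% of the 4080 exonic bases of PRR11 and exons on the other strand cover 2.38%.

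SKA2 and SKA3 rose in siPRR11 cells, while SKA1 was higher in both libraries without passing the test. That makes 2 of 3 SKA subunits called higher, beside 7.61% of all genes tested. SKA2, which with SKA1 and SKA3 forms the coiled-coil core of the complex, had 42.3 and 39.3 RPKM in siNC and 69.6 and 74.2 RPKM in siPRR11. Its mean level went from 40.8 ± 2.12 (SD, n = 2) to 71.9 ± 3.22 RPKM (SD, n = 2), and the groups did not overlap. The rise was 1.70-fold (95% interval 1.52 to 1.91) on TMM-normalized counts, a log2 fold change of 0.77 (SE 0.0761, adjusted p = 7.71e-05, edgeR quasi-likelihood F test). It was the most deeply covered of the 4 genes, with 11073, 7309, 20297 and 19677 reads. Reads that match both SKA2 and its pseudogene SKA2P1, which has a row of its own, could have been divided between them.

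SKA3, the subunit whose phosphorylated part binds the Ndc80 complex, lies on chromosome 13 from 21153595 to 21176602 on the minus strand. It had 7.14 and 6.39 RPKM in siNC and 10.8 and 10.4 RPKM in siPRR11, from 1809, 1149, 3043 and 2668 reads. Both siPRR11 libraries lay above both siNC libraries, with means of 6.77 ± 0.534 (SD, n = 2) and 10.6 ± 0.279 RPKM (SD, n = 2). The rise was 1.51-fold (95% interval 1.31 to 1.74), or 0.60 on the log2 scale (SE 0.0925, adjusted p = 0.00131, edgeR quasi-likelihood F test).

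SKA1, the subunit that carries the microtubule-binding domain, lies on chromosome 18 from 50374995 to 50394173 on the plus strand and was the least abundant of the 4 genes. It had 1.36 and 1.26 RPKM in siNC and 1.65 and 1.95 RPKM in siPRR11, from 334, 220, 452 and 484 reads. The libraries of the groups did not overlap, but the siPRR11 pair lay further apart than the siNC pair, with means of 1.31 ± 0.07 (SD, n = 2) and 1.80 ± 0.207 RPKM (SD, n = 2). Its log2 fold change of 0.40 (SE 0.146, 95% interval 0.09 to 0.72) had an adjusted p of 0.0813 in the edgeR quasi-likelihood F test. SKA1 was thus not called, and its interval of the fold, from 1.06 to 1.65, takes in most of that of SKA3. None of the SKA genes shares exonic bases with another row of the table.

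**Figure D1:**
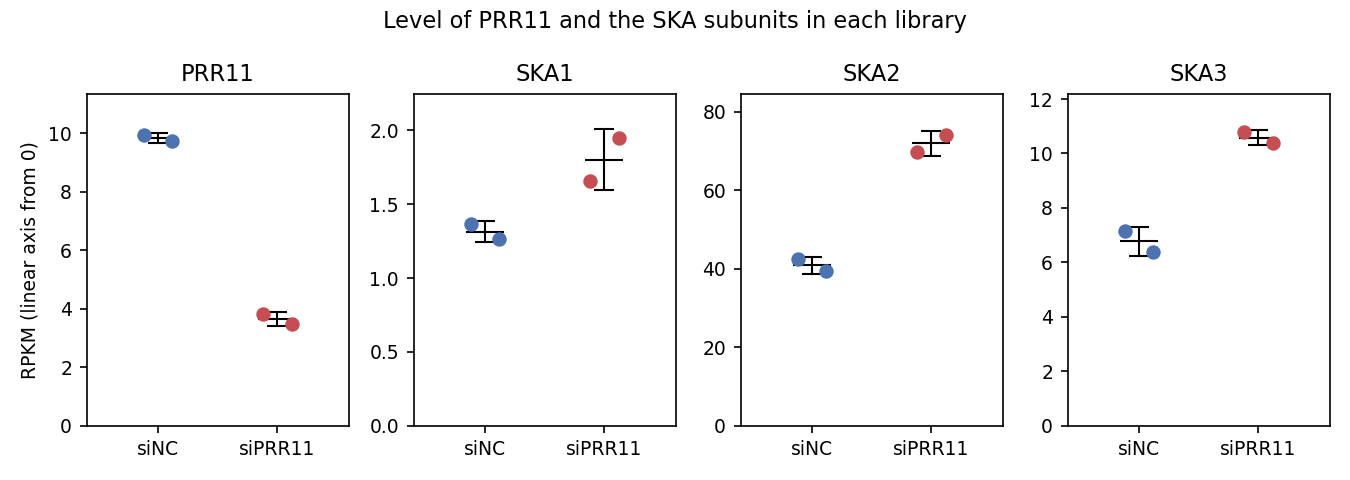
Level of each gene in RPKM (vertical axes, linear, starting at 0, with a scale of their own) in the siNC and siPRR11 libraries. Points are single libraries and bars are the mean and SD of 2 libraries. The siPRR11 points lie below the siNC points for PRR11 (3.49 to 3.82 against 9.72 to 9.95) and above them for SKA1, SKA2 and SKA3.

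The groups did not overlap for any of the 4 genes, which was also found for 58.4% of all genes tested and is therefore a weak description by itself. The size of the changes places them more clearly among all 21630 genes. SKA2 had a larger log2 fold change than all but 1007 of them (4.66%), SKA3 all but 1657 (7.66%) and SKA1 all but 2968 (13.7%). In the level per exonic length in siNC cells, SKA2 was above 94.5% of the genes tested, PRR11 above 79.6%, SKA3 above 72.9% and SKA1 above 40.8%.

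The order of the 4 levels differed between the groups. In both siNC libraries it ran, in RPKM, from SKA2 over PRR11 and SKA3 to SKA1, and in both siPRR11 libraries PRR11 had dropped below SKA3. Neighbors in each order were separated in every library, with no overlap between their ranges. The SKA2 level was 4.26 and 4.05 times the PRR11 level in siNC and 18.2 and 21.3 times in siPRR11. The log2 ratio of PRR11 to SKA2 thus differed by -2.25 between the groups, from -2.05 ± 0.0511 (SD, n = 2) to -4.30 ± 0.157 (SD, n = 2). A two-sided exact permutation test over the libraries gave p = 0.333, the smallest value that 2 against 2 can give. PRR11 stood at 1.39 and 1.52 times the SKA3 level in siNC and at 0.354 and 0.336 times in siPRR11.

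Within the complex, the transcripts of the subunits were far from equal, and their proportions moved little. The summed RPKM of the SKA genes was 50.9 and 47 in siNC and 82.1 and 86.5 in siPRR11. SKA2 made up 83.3% and 83.7% of this sum in siNC and 84.8% and 85.7% in siPRR11. SKA3 made up 14% and 13.6% in siNC and 13.1% and 12% in siPRR11. For SKA1 the share was 2.68% and 2.69% in siNC and 2.02% and 2.25% in siPRR11. Differences between the groups were 1.80 percentage points for SKA2, -1.25 for SKA3 and -0.55 for SKA1, each without overlap and each with p = 0.333 in the two-sided exact permutation test, its smallest possible value. The SKA2 level was 5.93 and 6.16 times that of SKA3 in siNC and 6.46 and 7.14 times in siPRR11.

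**Figure D2:**
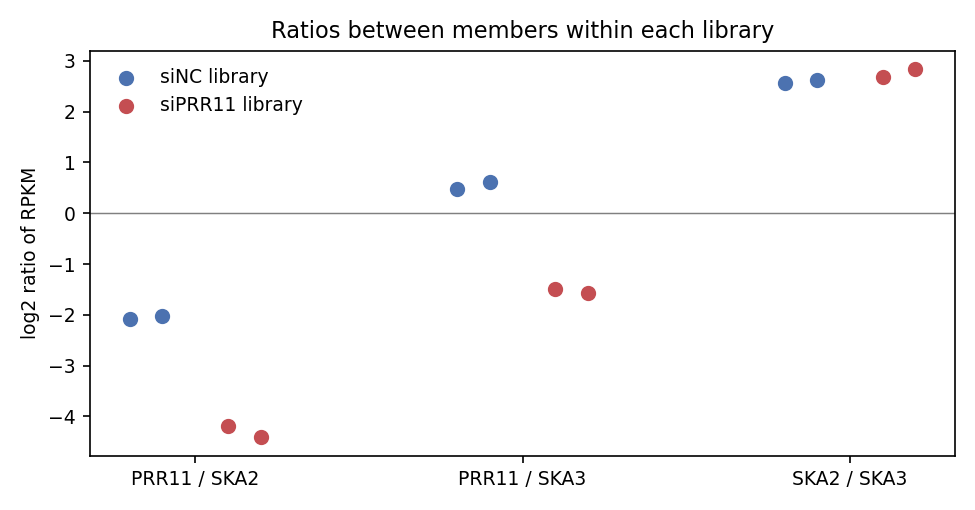
Log2 ratio of RPKM between pairs of genes (vertical axis) within each library, siNC in blue and siPRR11 in red. Each point is 1 library. The ratios to PRR11 shifted by -2.25 (over SKA2) and -2.08 (over SKA3), while that of SKA2 to SKA3 shifted by 0.17.

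The calls for PRR11, SKA2 and SKA3 held under every alternative that was run. Fits without 1 library take the lone library of a group to vary like the other group, so a call kept there is not a stricter check. Leaving out each library in turn gave log2 fold changes of -1.54 to -1.41 for PRR11, 0.71 to 0.82 for SKA2 and 0.52 to 0.68 for SKA3. For SKA1 the range was 0.28 to 0.52, with adjusted p between 0.0629 and 0.485 in edgeR's test. SKA1 gave an adjusted p of 0.156 with DESeq2 and 0.0806 with RLE size factors in edgeR, and the replicate block was the 1 setting that called it.

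**Figure D3:**
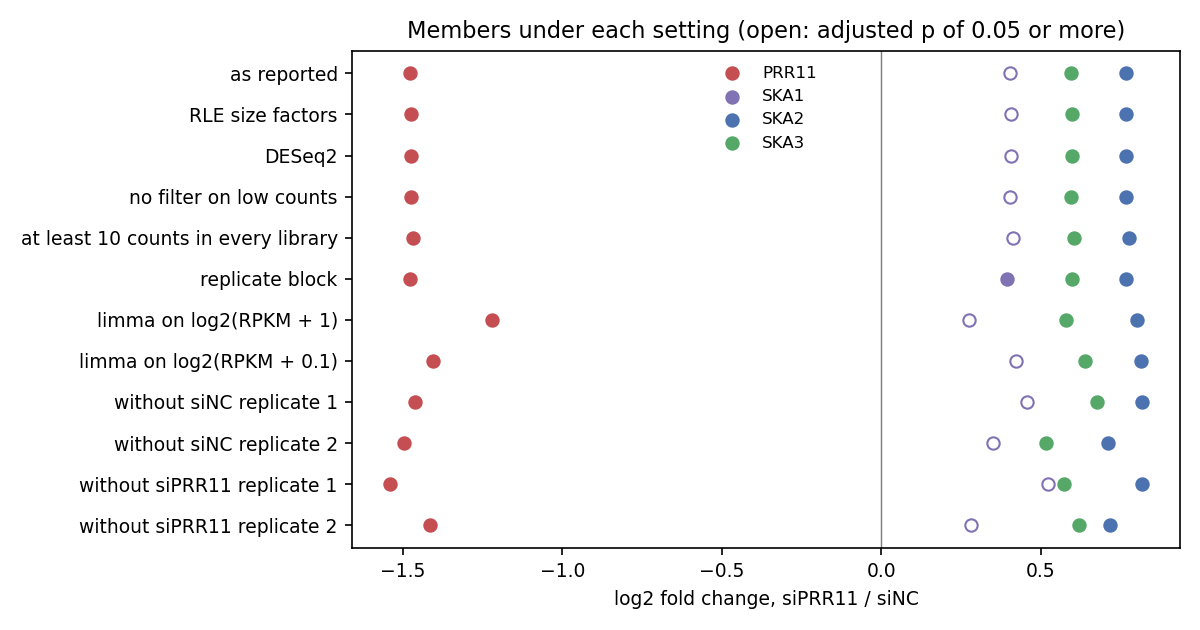
Log2 fold change of siPRR11 over siNC (horizontal axis) for PRR11 and the SKA genes under each setting (rows), where filled points passed an adjusted p of 0.05 and open points did not. PRR11 stays between -1.54 and -1.22, SKA2 and SKA3 stay filled, and SKA1 is filled in 1 of the 12 settings.

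Other genes around PRR11 were read next, taking every row that starts within 500 kb of its start. Of these, 13 besides PRR11 and SKA2 could be tested, and 4 passed the test, beside 16.7% of all genes tested. Of these 4 rows, 2 share exonic bases with PRR11. RAD51C, a gene of homologous recombination that starts 462.9 kb before PRR11, was higher, with 33.4 and 28.1 CPM (TMM-normalized counts divided by library size) in siNC and 57.4 and 49.4 CPM in siPRR11. Its log2 fold change was 0.80 (SE 0.105, adjusted p = 0.000472, edgeR quasi-likelihood F test), close to that of SKA2. YPEL2 was lower, with 6.26 and 7.90 CPM in siNC and 4.46 and 5.00 CPM in siPRR11, a log2 fold change of -0.58 (adjusted p = 0.0191 in edgeR's test). The YPEL2 call was lost with limma on log2(RPKM + 1) (-0.21, adjusted p = 0.14) and on log2(RPKM + 0.1) (-0.46, adjusted p = 0.168). It was also lost without siNC replicate 2 (-0.41) and without siPRR11 replicate 1 (-0.495).

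The other rows that passed, CTD-2510F5.6 and CTD-2510F5.4, overlap PRR11. CTD-2510F5.6 had 5.04 and 4.71 CPM in siNC and 2.04 and 2.02 CPM in siPRR11, a log2 fold change of -1.26 (adjusted p = 0.000297 in edgeR's test). All of its exonic bases are shared, 135 with PRR11 and 422 with SMG8 on the same strand, so its reads cannot be told apart from theirs. CTD-2510F5.4 runs against PRR11 and overlaps it by 97 bases, or 30.2% of its exons. It had 3.68 and 3.67 CPM in siNC and 1.72 and 1.38 CPM in siPRR11, a log2 fold change of -1.24 (adjusted p = 0.000855 in edgeR's test). The use of strand in the counting was not given in the sources used here, and PRR11 reads in the shared bases are uncertain to the same extent. The remaining 9 genes were not called. Nearest to the pair, TRIM37 changed by 0.14 on the log2 scale (adjusted p = 0.197 in edgeR's test), AC099850.1 had 0.15, SMG8 0.07 and GDPD1 -0.28. Further out, TEX14 had 0.51, PPM1E -0.30, DHX40 -0.12, CLTC 0.10 and the sparsely counted RP11-758H9.2 1.23. None of these 9 was called when 1 library was left out, but several values moved widely. TEX14 ranged from 0.11 (without siNC replicate 2) to 1.15 (without siNC replicate 1) and RP11-758H9.2 from 0.29 (without siPRR11 replicate 2) to 2.23 (without siNC replicate 1). PPM1E ranged from -0.58 to -0.068 and GDPD1 from -0.51 to -0.085, their ends without siPRR11 replicate 1 and without siPRR11 replicate 2. SMG8 ranged from 0.0045 to 0.14, CLTC from 0.043 to 0.14 and AC099850.1 from 0.087 to 0.20.

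**Figure D4:**
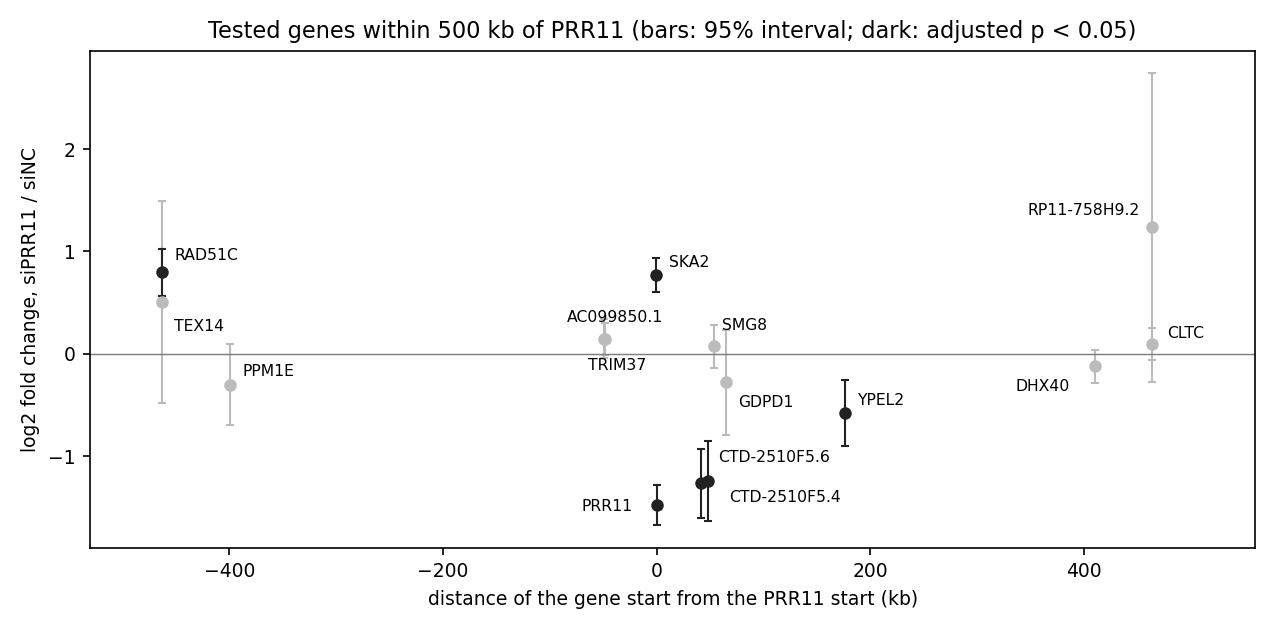
Log2 fold change of siPRR11 over siNC (vertical axis, with 95% intervals) of tested genes against the distance of their start from the PRR11 start in kb (horizontal axis). Dark points passed an adjusted p of 0.05. PRR11 (-1.48) and SKA2 (0.77) start next to each other and lie on opposite sides of 0, and the rows beside PRR11 at -1.26 and -1.24 overlap its exons.

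The partners of the SKA complex were taken from lists written from gene names: 6 lists of kinetochore and spindle genes with 67 genes, all of them tested. In these lists 38 genes (56.7%) rose and none fell by edgeR's test. Of all genes tested, 16.7% were called in either direction, 7.61% as higher and 9.14% as lower. The same shares stand beside the counts of the single lists below. Without siPRR11 replicate 1 the count was 19 (28.4%, beside 9.68% of all genes tested in that fit), and without siPRR11 replicate 2 it was 27 (40.3%, beside 10.6%). Limma on log2(RPKM + 1) called 28 (41.8%, beside 8.21%). The median log2 fold change of the 67 genes was 0.30, and that of all genes tested was 0.00. Of the 67 genes, 61 were higher and 6 lower in siPRR11. Among them, 3 had a larger log2 fold change than SKA2, 8 a larger one than SKA3 and 19 a larger one than SKA1, while all 67 lay above PRR11.

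At the outer kinetochore, 3 of 4 genes of the Ndc80 complex, which binds microtubules and receives SKA, rose, with a list median of 0.41. NDC80 had 6.74 and 6.28 RPKM in siNC and 9.78 and 9.24 RPKM in siPRR11, a log2 fold change of 0.50 (SE 0.0885, adjusted p = 0.00286 in edgeR's test). SPC24 rose by 0.49 and NUF2 by 0.33 on the log2 scale, and SPC25 had 0.26 (adjusted p = 0.112 in edgeR's test). SPC25 ranged from 0.14 without siNC replicate 1 to 0.38 without siNC replicate 2, where it was called (adjusted p = 0.00963 in edgeR's test). The NUF2 call was lost without siNC replicate 2 (0.24, adjusted p = 0.062 in edgeR's test) and without either siPRR11 library (0.35 and 0.31). In the Mis12 complex with KNL1, the platform on which Ndc80 stands, 2 of 6 rose, with a median of 0.23. They were KNL1, listed as CASC5, with 0.53, and its partner ZWINT with 0.47, whereas DSN1 had 0.28 and PMF1 0.17 without passing. DSN1 was called without siNC replicate 1 (0.40, adjusted p = 0.0127 in edgeR's test) and had 0.16 without siNC replicate 2.

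Deeper in the centromere, 10 of 20 genes of the constitutive network and of CENP-A loading rose, with a median of 0.28. OIP5, a subunit of the Mis18 complex that prepares centromeres for CENP-A, had the largest change of the 67 genes. It went from 1.41 and 1.18 RPKM in siNC to 3.01 and 2.62 RPKM in siPRR11, a log2 fold change of 1.06 (SE 0.182, adjusted p = 0.00227 in edgeR's test). Exons of OIP5-AS1 on the other strand cover 38% of its exonic bases. CENPH rose by 0.69, CENPU by 0.65 and CENPN by 0.50 on the log2 scale. CENPA itself, the centromeric histone H3 variant, had 6.96 and 5.36 RPKM in siNC and 6.71 and 6.53 RPKM in siPRR11, which overlap.

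In the spindle checkpoint, which delays anaphase until kinetochores are attached, 7 of 12 genes rose, with a median of 0.31. ZW10 and KNTC1, both of the RZZ complex that recruits dynein and corona proteins, led the list. ZWILCH, the other subunit of this complex, had a log2 fold change of 0.21 and was not called (adjusted p = 0.106 in edgeR's test). ZW10 had 2.98 and 2.91 RPKM in siNC and 5.31 and 5.10 RPKM in siPRR11, a log2 fold change of 0.77 (SE 0.102, adjusted p = 0.000477 in edgeR's test), and KNTC1 had 0.65. MAD1L1, the kinetochore receptor of MAD2, rose by 0.43 on the log2 scale and the kinase gene BUB1 by 0.33. Without siPRR11 replicate 1, BUB1 had 0.30 and an adjusted p of 0.118 in edgeR's test. With limma on log2(RPKM + 1), MAD1L1 had 0.46 and an adjusted p of 0.0508.

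The next list holds mitotic kinases with cyclins and activators, the chromosomal passenger complex and phosphatase subunits. Of its 13 genes, 8 rose, with a median of 0.34. CDK1, whose kinase loads SKA through SKA3, had 20.7 and 20.6 RPKM in siNC and 27.4 and 27.1 RPKM in siPRR11, a log2 fold change of 0.35 (SE 0.0722, adjusted p = 0.00678 in edgeR's test). AURKB, the kinase that opposes this step, had 31.2 and 22.5 RPKM in siNC and 38.9 and 35.5 RPKM in siPRR11, with the siNC libraries far apart. Its log2 fold change of 0.42 (adjusted p = 0.0382 in edgeR's test) was 0.20 without siNC replicate 2 (adjusted p = 0.119 in edgeR's test), and limma did not call it. PPP2R5A and PPP1CC, subunits of phosphatases at the kinetochore, had 0.44 and 0.35, CDCA8 had 0.39, and PLK1 had 0.15 (adjusted p = 0.214 in edgeR's test). Of the core of the passenger complex, AURKB and CDCA8 thus passed as higher, while INCENP had -0.17 (adjusted p = 0.147 in edgeR's test) and BIRC5 -0.13 (adjusted p = 0.289 in edgeR's test), each below siNC in both siPRR11 libraries. Without siPRR11 replicate 2, PPP2R5A had 0.40 (adjusted p = 0.0646 in edgeR's test) and PPP1CC 0.32 (adjusted p = 0.101 in edgeR's test). Without siPRR11 replicate 1, CDK1 had 0.34 (adjusted p = 0.0533 in edgeR's test) and CDCA8 had 0.34 (adjusted p = 0.143 in edgeR's test).

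Among microtubule tip and spindle proteins, 8 of 12 genes rose, with a median of 0.28. SPAG5, which encodes the spindle protein astrin, changed most, from 20.4 and 17.9 RPKM in siNC to 36.1 and 32.8 RPKM in siPRR11. Its log2 fold change was 0.80 (SE 0.0856, adjusted p = 0.000132 in edgeR's test), and 15.9% of its exonic bases overlap other genes. The kinesin gene KIF18A rose by 0.43, CENPF by 0.38, and KIF2C, which encodes a microtubule-depolymerizing kinesin, by 0.37 on the log2 scale. KIF2C had 0.33 and an adjusted p of 0.0792 in edgeR's test without siPRR11 replicate 1. Leaving out siPRR11 replicate 1 lowered the counts to 6 for the centromere list and to 3 each for the checkpoint, kinase and microtubule tip lists. Without siPRR11 replicate 2, the kinase list had 5, and limma on either RPKM scale called 5 of the microtubule tip list.

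**Figure D5:**
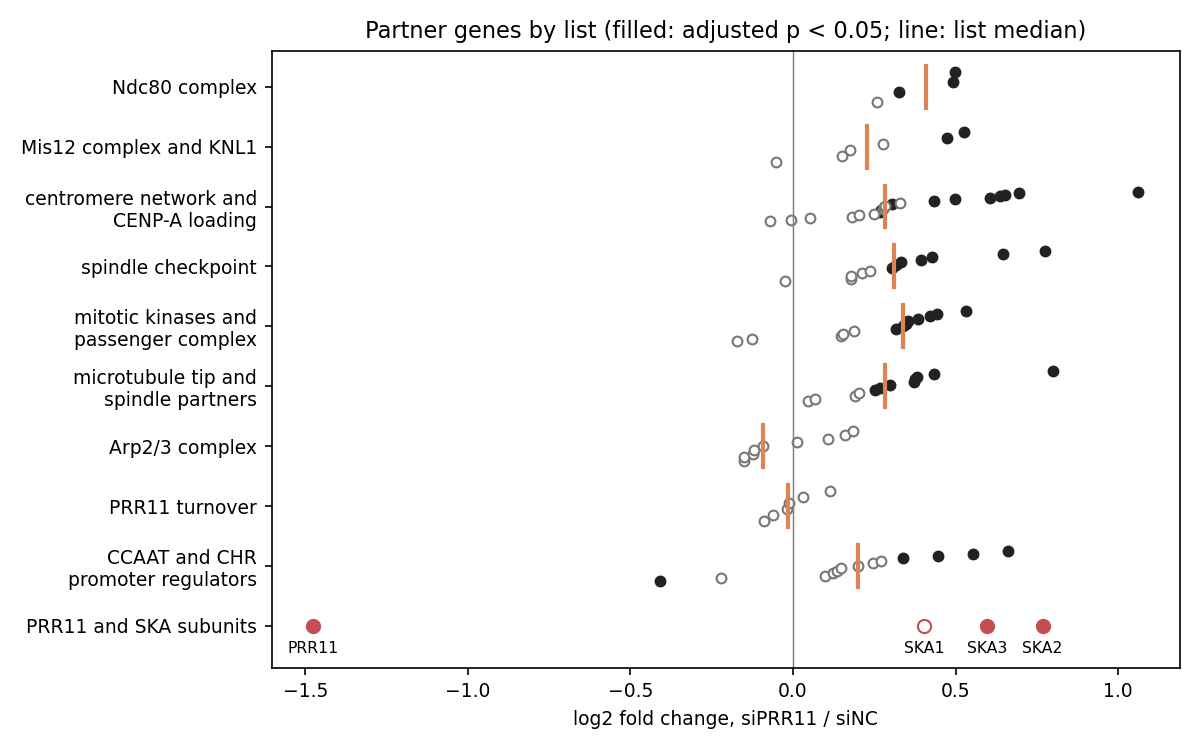
Log2 fold change of siPRR11 over siNC (horizontal axis) of every gene in 9 partner lists (rows), with PRR11 and the SKA genes in red at the bottom. Filled points passed an adjusted p of 0.05 over all genes tested, and the orange line is the median of a list. The 6 upper lists have medians between 0.23 and 0.41, and those of the Arp2/3 and PRR11 turnover lists are -0.09 and -0.02.

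The partners of the PRR11 protein were read in the same way. None of the 9 genes of the Arp2/3 complex, which nucleates branched actin, was called by edgeR, beside 16.7% of all genes tested. At that share, a list this short can hold 0 calls without differing from other genes. Of the 9 genes, 1, ARPC1A, had an unadjusted p under 0.05. DESeq2 and limma called 0 of the 9, beside 9.79% (DESeq2) and 8.21% and 8.68% (limma, pseudocounts of 1 and 0.1) of all genes in those fits. The DESeq2 share is taken over 34506 genes with any count, against 21630 for edgeR and limma, so these shares have unlike bases. The median of the list was -0.09. ARPC1A, which encodes an actin-binding subunit, had 99.8 and 91.9 RPKM in siNC and 113.3 and 111.9 RPKM in siPRR11, a log2 fold change of 0.18 (adjusted p = 0.111 in edgeR's test). The ARPC1A change was called without siNC replicate 1 (0.24, adjusted p = 0.031 in edgeR's test). ACTR2 had -0.15.

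The machinery of PRR11 turnover, which comprises the ubiquitin ligase subunits FBXW7, SKP1, CUL1 and RBX1 and the GSK3 kinases, showed no call either. Among these 6 genes, 0 passed by edgeR, beside 16.7% of all genes tested, and 0 by DESeq2 or limma. At that share, a list of 6 can hold 0 calls without differing from other genes. Of the 6, 0 had an unadjusted p under 0.05, and the median was -0.02. FBXW7, which selects the substrate, had 3.41 and 3.90 RPKM in siNC and 3.72 and 3.75 RPKM in siPRR11, so that the siPRR11 values lay between those of siNC. GSK3B had 4.83 and 5.85 RPKM in siNC and 5.17 and 5.39 RPKM in siPRR11, again between them. The 95% interval of the log2 fold change ran from -0.21 to 0.18 for FBXW7 and from -0.28 to 0.15 for GSK3B.

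The last list holds regulators of CCAAT and CHR promoters, the elements searched above. Of its 13 genes, 4 rose, beside 7.61% of all genes tested, and 1 fell, beside 9.14%, with a median of 0.20. On either RPKM scale, limma called 3 of them. FOXM1, a transcription factor of late cell cycle genes, had 15.9 and 15.1 RPKM in siNC and 25.9 and 24.8 RPKM in siPRR11, a log2 fold change of 0.66 (SE 0.0748, adjusted p = 0.000185 in edgeR's test). ITFG2 on the other strand covers 15.9% of the FOXM1 exonic bases. LIN9 and LIN54, subunits of the MuvB core that reads CHR elements, rose by 0.55 and 0.45 on the log2 scale. Limma did not call LIN54 (adjusted p of 0.0606 and 0.0524 with pseudocounts of 1 and 0.1). The other subunits of this core, LIN37, LIN52 and RBBP4, had 0.15, 0.14 and 0.10 and were not called (adjusted p of 0.571, 0.487 and 0.407 in edgeR's test). RBL1, a pocket protein that binds E2F4, rose by 0.34 on the log2 scale. E2F4, a repressor E2F, fell from 24.2 and 24.99 RPKM in siNC to 19.0 and 19.3 RPKM in siPRR11, a log2 fold change of -0.41 (SE 0.0739, adjusted p = 0.00317 in edgeR's test). The NF-Y subunits had log2 fold changes of -0.22 for NFYA, 0.20 for NFYB and 0.27 for NFYC, with adjusted p of 0.101, 0.0963 and 0.0562 in edgeR's test. NFYC was called by DESeq2 (0.27, adjusted p = 0.0448), under both other filters on low counts (adjusted p of 0.0326 and 0.0433 in edgeR's test) and without siNC replicate 1 (0.33, adjusted p = 0.0114 in edgeR's test), and NFYA without siNC replicate 1 (-0.27, adjusted p = 0.0482 in edgeR's test).

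The genes whose pattern over the 4 libraries was most like that of each gene were listed by the Euclidean distance between log2 CPM values centered on their mean, among 14192 other genes whose average log2 CPM was 1 or more. This is a description over only 4 libraries, 2 from each group. TRIM68 (distance 0.0739), AC007362.3 (0.0925) and RRM1-AS1 (0.13) were nearest to PRR11, and TRIM68 had 9.2 and 9.3 CPM in siNC and 3.56 and 3.34 CPM in siPRR11. MKNK2 (0.0644), LINC01547 (0.0665) and TRIP4 (0.0702) were nearest to SKA2. Near SKA3 lay H2AFZ (0.017), which encodes the histone variant H2A.Z, and RAB19 (0.0278). DNAJC30 (0.0437), ZNF185 (0.053) and RPL39L (0.0577) were nearest to SKA1. None of the genes named here is in the partner lists.

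The libraries held between 59003839 and 92612749 counted reads, the 10 most counted genes took 6.6% to 6.78% of them, and libraries of a group differed by more than sampling noise (chi-square per degree of freedom 20.8 in siNC and 14.1 in siPRR11). Mitochondrial genes took 4.99% and 4.96% of the counted reads in siNC and 5.58% and 5.49% in siPRR11, without overlap, and the part of this in the results was not tested. Of 8 markers of renal epithelium and kidney lineage, 7 had at least 1 RPKM in every library, PAX8 with 34.6 to 49.8 among them, and CDH6 stayed under 0.1. Their summed RPKM was 342.4 to 399.8 in siNC and 392.6 to 421.7 in siPRR11. All 3 endothelial markers, 3 of 4 leukocyte markers and 3 of 4 fibroblast markers were under 0.1 RPKM everywhere. The summed level was 0.577 to 0.86 RPKM in siNC and 0.474 to 0.788 in siPRR11 for leukocyte markers, and 0.0218 to 0.0224 and 0.0459 to 0.0468 for endothelial markers. The fibroblast sum was 4.38 to 5.04 RPKM in siNC and 7.95 to 10.1 in siPRR11, nearly all of it COL1A1, and its part in the results was not tested.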

How the data were processed

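RNA-seq was measured in 4 ACHN libraries, 2 with siNC and 2 with siPRR11, grouped by their labels. Stranded mRNA libraries were sequenced on a DNBSEQ instrument. The authors trimmed reads (Trimmomatic 0.36 per the labels), mapped them with STAR to GRCh38 and used featureCounts (Subread 1.5.1) for counting. They deposited raw read counts per gene, without normalization, and RPKM values, which equal the counts divided by exonic length and column total to within 3.08e-06%. The annotation release and the strand setting were not given in the sources used here.

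The counts were fitted with edgeR 4.0.16 in R 4.3.3 (TMM, filterByExpr, quasi-likelihood F test with condition as the only term), with Benjamini-Hochberg adjustment across the 21630 genes tested. The other 14729 rows had too few counts. TMM factors were 0.983 to 1.018 and the common biological coefficient of variation was 0.0856. The SE of a log2 fold change comes from its F statistic, and 95% intervals from the SE. The fit was also run on simulated counts that held no effect of the replicate number. That run therefore does not cover libraries of the same number deviating together. Alternatives were RLE size factors, DESeq2 1.42.0, no filter, a minimum of 10 counts in each library, a block for the replicate number, limma 3.58.1 with a trend on log2(RPKM + 1) or log2(RPKM + 0.1), where a fold change understates that of low genes, and each library left out. Levels were compared between genes in RPKM.

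The 4 genes and the 9 lists were chosen with earlier results of these data known. Genes were named by a rule: the 4 genes, the 4 of each list with the smallest p, 9 list genes by name (NDC80, AURKB, CDK1, PLK1, FBXW7, GSK3B, NFYA, NFYB and NFYC), tested genes within 500 kb of PRR11 and the 3 nearest patterns for each gene. A result that this rule would name is not reported here. CENPA, RBL1, INCENP, BIRC5, LIN37, LIN52, RBBP4 and ZWILCH were named after their values were seen. Windows of 250 bases before RefSeq starts were searched on both strands, and the bases between the genes were read from GRCh38.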

Additional observations from a re-analysis of the deposited data

How the results depend on the processing

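PRR11, SKA2 and SKA3 kept their direction and their call under all 7 other settings and all 4 fits without 1 library, where the lone library of a group is taken to vary like the other group. The PRR11 to SKA2 ratio and the shares of the subunits kept their direction as well. The replicate numbers are shared between the groups, and samples with the same number deviated together (r = 0.482 over 14193 genes). Crossed numbers gave -0.482, which is no second check, because with 2 libraries a group it must be the negative of the first value. The labels do not say that a number marks a shared batch, and there are only 2 pairs. With the replicate block, 6988 genes were called in place of 3622, and SKA1 passed at 0.40 on the log2 scale (edgeR adjusted p of 0.0072). The block also called 4 genes of the Mis12 list, 16 of the centromere list, 11 of the checkpoint list, 1 of the Arp2/3 list and 9 of the CCAAT and CHR regulators, or 55 of the 67 kinetochore and spindle genes, INCENP as lower and the rest as higher. Other named genes that gained a call with the block were SPC25, DSN1, PMF1, ARPC1A, NFYA, NFYB, NFYC and RPL39L. With limma, 1775 (log2(RPKM + 1)) and 1878 (log2(RPKM + 0.1)) genes were called, 61.5% and 61.3% of them higher against 45.4% with edgeR on counts, and 5 of the microtubule tip list and 3 of the CCAAT and CHR regulators were called on either scale. The cause was not tested.

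Leaving out 1 library in turn gave 2172 to 4590 called genes, 6 to 11 in the centromere list, 3 to 7 in the checkpoint list, 3 to 9 in the kinase list, 3 to 8 in the microtubule tip list and 0 to 1 in the Arp2/3 list. Uncalled log2 fold changes turned sign without siNC replicate 2 for RBX1, whose range over these fits was -0.030 to 0.27, GSK3B (-0.20 to 0.077) and FBXW7 (-0.12 to 0.079), and FBXW7 also had 0.025 and 0.032 with limma at pseudocounts of 1 and 0.1. Of the values of single partner genes under an alternative, 690 stayed on their side of the threshold, 24 lost a call, 17 gained one and 5 turned sign without a call. With 2 libraries a group, the precision is set by the spread between libraries, and SKA1, with 220 to 484 reads, has the least depth of the 4 genes.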
